A study of Homo sapiens with 8 samples.

Results

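The 45 genes described here are induced by interferons or serve the presentation of peptides on MHC class I molecules. They were taken from a list and matched by symbol to the Ensembl identifiers of the raw count files, and all 45 were found among the 58051 genes of those files. RNA was sequenced from MDA231 (MDA-MB-231) cells, a human breast cancer line, in 8 samples collected in full medium without treatment. The 2 parental samples were unmodified. The 3 SDHBKO samples lacked SDHB, the iron-sulfur subunit of respiratory complex II, after its exon 1 was targeted with TALEN nucleases and transfectants were selected with hygromycin. The 3 SDHBKOSDHAlow samples carried the same knockout and in addition an shRNA plasmid against SDHA, the catalytic subunit of complex II, with puromycin selection. Parental cells thus went through neither selection, and the labels of the SDHBKO samples name no empty vector, so that each modification and its selection cannot be told apart. The sources used here do not say whether SDHBKO is a single clone. The labels number the samples of a group as biological replicates, and the p-values below measure the spread between these samples only.

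Interferons are secreted proteins that bind receptors on the cell surface and activate JAK kinases. The kinases activate STAT transcription factors, and STAT2 together with IRF9 forms part of the complex that binds the interferon-stimulated response element (ISRE) in the promoters of target genes. The target genes encode enzymes and membrane proteins that block viral replication, the ubiquitin-like protein ISG15 with its conjugation machinery, and parts of the class I pathway. In that pathway the peptide transporter TAP1-TAP2 carries peptides into the endoplasmic reticulum, tapasin (TAPBP) helps to load them, and the loaded HLA heavy chain reaches the cell surface only with beta-2-microglobulin (B2M).

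RefSeq promoters (GRCh38.p14, 250 bases before to 50 after the start of a gene) were available for 35 of the 45 genes. An ISRE core, searched on both strands as 2 copies of GAAA with any 2 bases between them, was present in 23 of the 35 promoters (65.7%) and in 996 of 27305 promoters of all genes (3.65%). Among the listed genes it was found in 12 of 20 promoters of genes that passed the count threshold explained below (60%) and in 11 of 15 of genes that did not (73.3%). The gamma-activated sequence TTCNNNGAA, searched on both strands, was present in 9 of the 35 promoters (25.7%) and in 7.88% of all promoters. The 2 motifs share letters and their matches can overlap. The promoters of HLA-B and HLA-C held neither in these exact letters, which does not show that such an element is absent. A match describes letters in this window and not a bound site. Stretches of 60 bases are shown for the genes on which the results turn, with capitals for each ISRE core on either strand. B2M, TAP1 and TAPBP belong to the class I pathway, ISG15 and IFITM3 were among the listed genes with the most reads, ISG20 and OAS3 were the antiviral genes whose groups did not overlap at an unadjusted p below 0.05, and IFITM1, IFI44L and DDX60 had no read in any sample.

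B2M, chr15:44711348-44711407, plus strand: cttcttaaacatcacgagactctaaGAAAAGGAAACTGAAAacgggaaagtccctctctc
TAP1, chr6:32853804-32853863, minus strand: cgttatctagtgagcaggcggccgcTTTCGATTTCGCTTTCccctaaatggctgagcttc
TAPBP, chr6:33314079-33314138, minus strand: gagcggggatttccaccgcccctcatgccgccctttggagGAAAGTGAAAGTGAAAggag
ISG15, chr1:1013359-1013418, plus strand: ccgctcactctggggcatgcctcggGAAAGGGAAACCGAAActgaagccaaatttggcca
IFITM3, chr11:320878-320937, minus strand: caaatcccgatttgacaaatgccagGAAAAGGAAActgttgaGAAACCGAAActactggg
ISG20, chr15:88638922-88638981, plus strand: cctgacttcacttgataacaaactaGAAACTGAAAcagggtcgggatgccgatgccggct
OAS3, chr12:112938306-112938365, plus strand: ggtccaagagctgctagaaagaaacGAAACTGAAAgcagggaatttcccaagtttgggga
IFITM1, chr11:313975-314034, plus strand: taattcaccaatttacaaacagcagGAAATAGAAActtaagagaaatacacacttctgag
IFI44L, chr1:78620259-78620318, plus strand: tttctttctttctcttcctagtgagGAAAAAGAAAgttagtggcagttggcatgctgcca
DDX60, chr4:168318806-168318865, minus strand: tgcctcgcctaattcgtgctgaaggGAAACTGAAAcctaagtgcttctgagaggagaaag

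In B2M, TAP1, TAPBP and ISG15 the capitals run over 2 cores that overlap each other. Of the genes shown, ISG15 ranked 364 by mean CPM among the 7550 genes tested, and B2M ranked 2305.

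The samples held 773042 to 1427141 reads counted on genes, so that 3 counts correspond to 2.1 to 3.88 CPM (counts per 1000000 reads on genes, which for the values of single genes below are also scaled by TMM). A chi-squared test of each replicate pair gave 2.07 per degree of freedom for the parental samples and 3.04 to 10.2 for pairs of the other groups, so that all pairs differed beyond counting noise. SDHBKOSDHAlow replicate 2, the deepest library, stood apart from its replicates, and some values below are also given without it. SDHA had 74.0 and 91.6 CPM in parental, 148, 135 and 151 CPM in SDHBKO and 8.45, 12.7 and 17.8 CPM in SDHBKOSDHAlow samples, lowest in the samples labelled as SDHA knockdown (log2 fold change -3.46 against SDHBKO, adjusted p = 1.16e-07, edgeR). SDHB had 0 to 4 counts in every sample, and reads from the 3′ end of its transcript lie outside the targeted exon and do not check the knockout. The 7 markers of MDA231 cells, which include VIM and CD44, summed to 5889.9 to 6535 CPM in every sample, ESR1 and PGR had no count, and all 7 leukocyte markers were at 0 in all samples. Of the 4 fibroblast markers COL1A2 and DCN were at 0, and the list summed to 1.21 to 8.10 CPM.

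A gene was tested when its mean normalised count over the samples (BaseMean) was above 5, and called when its adjusted p was below 0.1. Of the 45 genes 25 passed this threshold, and the 20 that did not had at most 8 counts in any sample. Reads on the 45 genes made up 0.386% to 0.503% of the reads on genes in a sample. Of these reads 75.9% fell on only 3 genes, IFITM2, IFITM3 and ISG15. The library reads transcript ends, so that a gene's tags do not grow with its length and no length correction was made. Reads that are split, lost or miscounted, as described below for several genes, still limit comparisons of CPM between genes. By role, 8 of 9 class I genes, 5 of 7 genes of the ISG15 system, 4 of 5 transcription factors, 6 of 17 antiviral effectors and 2 of 7 other interferon-induced genes were tested.

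**Figure D1:**
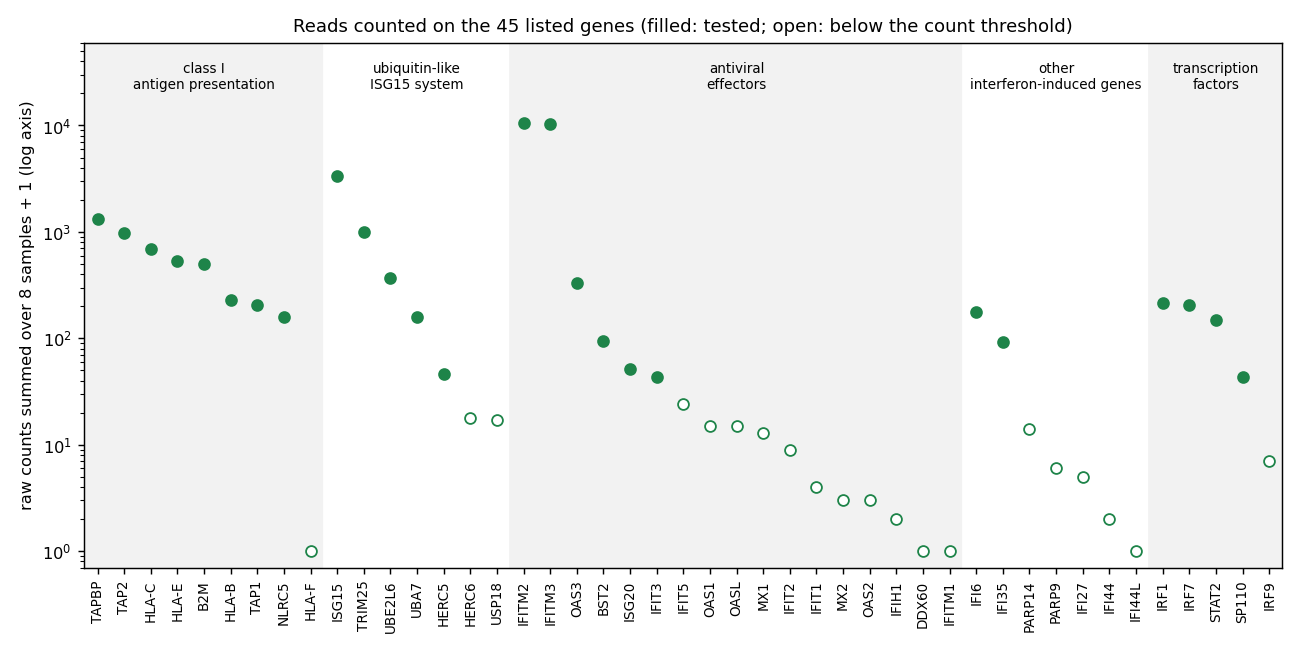
Raw counts summed over the 8 samples plus 1 (log axis) for each of the 45 listed genes, ordered by role and level. Filled points mark the 25 genes tested and open points the 20 below the count threshold; IFITM2, IFITM3 and ISG15 stand highest and IFITM1, DDX60, IFI44L and HLA-F lie at 0 counts.

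No count in any sample was found for 4 genes, the antiviral genes IFITM1 and DDX60, the interferon-induced gene IFI44L, and HLA-F, a nonclassical class I heavy chain. By counting error alone, a count of 0 allows a level of up to 2.1 CPM in the deepest and 3.88 CPM in the shallowest sample. This bound does not cover reads lost between near-identical genes, described below for HLA and IFITM genes. The other 16 untested genes were IFIT1, IFIT2 and IFIT5, MX1 and MX2, OAS1, OAS2 and OASL, the RNA sensor IFIH1, IFI27, IFI44, PARP9 and PARP14, IRF9, the E3 ligase HERC6 and the ISG15 protease USP18. Counts summed over all 20 untested genes were 20 and 17 in parental, 10, 18 and 16 in SDHBKO and 20, 28 and 12 in SDHBKOSDHAlow samples. These groups overlapped, and no difference was detectable in these genes at this depth. The most reads on any of them were 8 on OAS1 in SDHBKOSDHAlow replicate 3, a gene with 0 or 1 count in the other SDHBKOSDHAlow samples, and 7 on USP18 in parental replicate 2, against 1 in parental replicate 1.

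Class I genes held the calls among the listed genes. In SDHBKO against parental cells 2 of the 25 genes tested were called lower and 0 higher (8% in all), beside 5.54% of all genes tested (3.14% higher and 2.4% lower). Both were class I genes, HLA-B and B2M. In SDHBKOSDHAlow against parental cells 1 listed gene was called (4%), HLA-B, again lower, beside 0.914% of all genes tested (0.225% higher and 0.689% lower). In SDHBKOSDHAlow against SDHBKO cells no listed gene was called by edgeR's quasi-likelihood test or by DESeq2, beside 1.51% of all genes tested (0.318% higher and 1.19% lower). In that comparison 1 listed gene, OAS3, had a higher level at an unadjusted p below 0.05 in edgeR, beside 5.46% of all genes higher and 6.66% lower at that p. These comparisons share samples and are not independent of each other.

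HLA-B (chr6:31353872-31367067, minus strand) encodes a classical class I heavy chain. It had 89.1 and 49.1 CPM in the parental samples, from 77 and 37 counts. In SDHBKO samples it had 20.5, 17.8 and 11.9 CPM, from 15, 16 and 11 counts, and in SDHBKOSDHAlow samples 32.6, 17.2 and 22.3 CPM, from 27, 23 and 20 counts. Both parental samples lay above all 6 knockout samples, while the SDHBKO and SDHBKOSDHAlow samples overlapped. SDHBKO cells were 4.17-fold lower than parental cells, a log2 fold change of -2.06 ± 0.39 (SE, adjusted p = 0.0085 by edgeR's quasi-likelihood test). SDHBKOSDHAlow cells were 2.94-fold lower than parental cells, at -1.56 ± 0.37 (adjusted p = 0.0768, edgeR). Between SDHBKOSDHAlow and SDHBKO cells the log2 fold change was 0.50 ± 0.39 (adjusted p = 0.636, edgeR). Both calls were lost in the fit without parental replicate 1. Without it the log2 fold change of SDHBKO from parental cells was -1.57 (adjusted p = 0.394) and no gene of the whole table was called in this comparison, and the log2 fold change of SDHBKOSDHAlow from parental cells was -1.06 (adjusted p = 0.873). The call of SDHBKOSDHAlow against parental cells was also lost without SDHBKO replicate 1 (adjusted p = 0.108), SDHBKOSDHAlow replicate 1 (0.138) or 3 (0.103) and in a fit of the 2 groups alone (0.149).

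B2M (chr15:44711358-44718851, plus strand) encodes the light chain that every class I heavy chain needs. Its level was 127 and 78.3 CPM in parental, 42.4, 55.6 and 55.0 CPM in SDHBKO and 73.6, 57.5 and 70.2 CPM in SDHBKOSDHAlow samples. The 3 groups did not overlap, with parental samples highest and SDHBKO samples lowest. SDHBKO cells were 2.01-fold below parental cells, a log2 fold change of -1.01 ± 0.28 (adjusted p = 0.0589, edgeR). SDHBKOSDHAlow cells were not called against either group, at 0.38 ± 0.26 against SDHBKO (adjusted p = 0.585) and -0.63 ± 0.27 against parental cells (adjusted p = 0.346, both edgeR). The call in SDHBKO cells was lost without parental replicate 1 (-0.62, adjusted p = 0.647) or 2 (-1.31, 0.104) and without SDHBKO replicate 1 (-0.89, 0.2) or 3 (-1.06, 0.138).

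**Figure D2:**
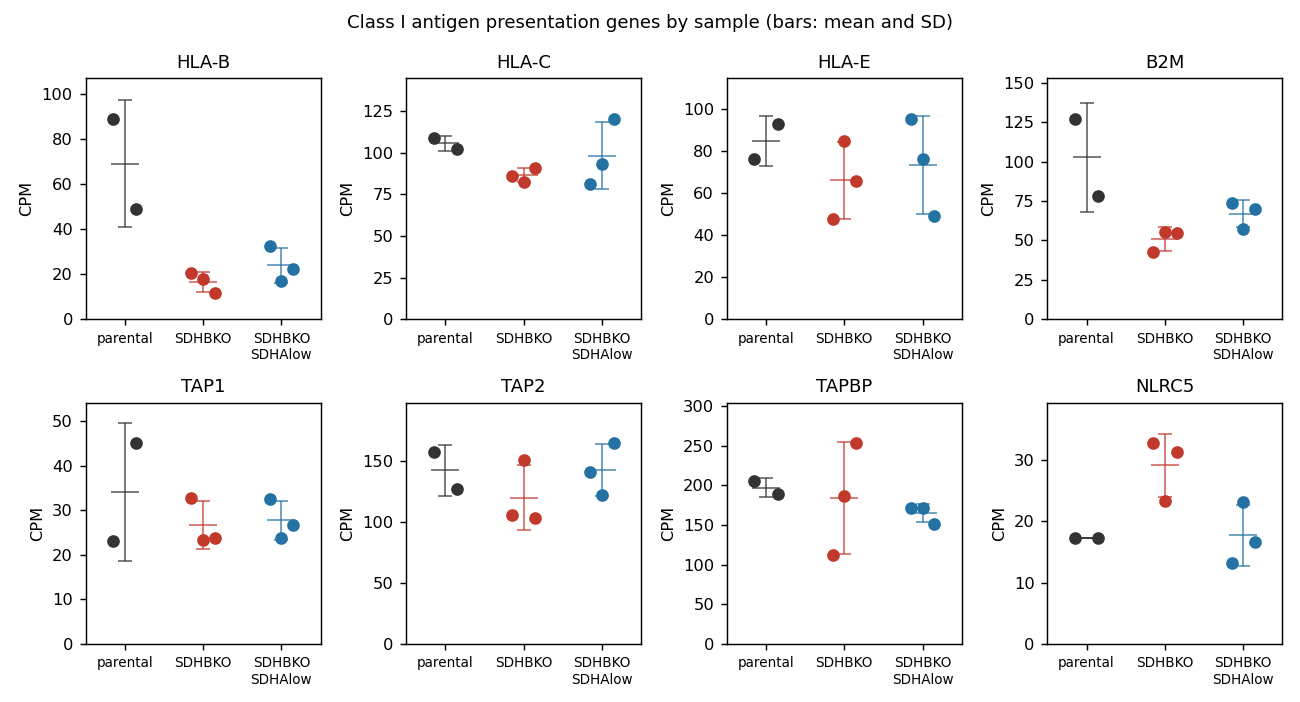
CPM of the 8 class I genes tested, 1 point per sample, with the mean and SD of 2 parental, 3 SDHBKO and 3 SDHBKOSDHAlow samples. For HLA-B and B2M both parental points lie above all other points, and no other gene of the 8 was called.

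The other heavy chains differed less. HLA-C, also a classical heavy chain, had 109 and 102 CPM in parental, 86.2, 82.3 and 90.6 CPM in SDHBKO and 80.9, 93.3 and 120 CPM in SDHBKOSDHAlow samples. Its SDHBKO samples lay below both parental samples, but the log2 fold change was -0.29 ± 0.25 (adjusted p = 0.593, edgeR). HLA-E, a nonclassical heavy chain recognised by natural killer cell receptors, had 76.4 and 92.9 CPM in parental, 47.9, 84.5 and 65.8 CPM in SDHBKO and 95.3, 76.1 and 49.0 CPM in SDHBKOSDHAlow samples, and all groups overlapped. HLA genes are near-identical in long stretches and differ between alleles, so that reads may be split between them or lost, and their counts are uncertain to that extent.

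The listed genes of peptide supply and loading were not called in any comparison. TAP2, a subunit of the peptide transporter, had 157 and 127 CPM in parental, 105, 151 and 104 CPM in SDHBKO and 141, 122 and 165 CPM in SDHBKOSDHAlow samples. TAPBP had 206 and 189 CPM in parental, 112, 187 and 254 CPM in SDHBKO and 171, 171 and 152 CPM in SDHBKOSDHAlow samples. Both genes overlapped between parental and SDHBKO cells, with log2 fold changes of -0.25 ± 0.25 and -0.09 ± 0.27 (adjusted p = 0.659 and 0.903, edgeR). TAP1, the other transporter subunit, had means of 34.1 ± 15.6 (SD, n = 2), 26.6 ± 5.37 (n = 3) and 27.7 ± 4.44 CPM (n = 3) in parental, SDHBKO and SDHBKOSDHAlow cells. It overlaps PSMB9 on the opposite strand, and the strand setting of the counting is not given in the sources used here. Reads of the stretch that both genes share may be lost or miscounted, which was not tested. NLRC5, the transactivator of class I genes, was the only class I gene with a log2 fold change above 0 in SDHBKO against parental cells. It averaged 17.3 ± 0.0682 (SD, n = 2), 29.2 ± 5.09 (n = 3) and 17.7 ± 5.0 CPM (n = 3) in the same order and did not pass the test (0.74 ± 0.42, adjusted p = 0.376 against parental cells, and -0.68 ± 0.36, adjusted p = 0.462 in SDHBKOSDHAlow against SDHBKO cells, edgeR).

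Over the 8 class I genes tested, 7 log2 fold changes were below 0 in SDHBKO against parental cells, with a median of -0.32, beside 0.00 over all genes tested. The median was -0.23 in SDHBKOSDHAlow against parental cells, with 7 genes below 0, and 0.16 in SDHBKOSDHAlow against SDHBKO cells, with 6 genes above 0. The summed level of the 9 class I genes was 805 and 701 CPM in parental, 480, 625 and 636 CPM in SDHBKO and 641, 584 and 622 CPM in SDHBKOSDHAlow samples. Without HLA-B and B2M it was 589 and 573 CPM in parental, 417, 551 and 569 CPM in SDHBKO and 535, 510 and 529 CPM in SDHBKOSDHAlow samples. Both sums were highest in the parental samples, and without HLA-B and B2M the lower parental sample lay close to the highest SDHBKO sample.

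The ISG15 system attaches ISG15 to proteins through the activating enzyme UBA7, the conjugating enzyme UBE2L6 and ligases such as HERC5 and TRIM25. ISG15 itself had 506 and 581 CPM in parental, 543, 386 and 486 CPM in SDHBKO and 334, 486 and 399 CPM in SDHBKOSDHAlow samples. Parental and SDHBKO samples overlapped (log2 fold change -0.21 ± 0.22, adjusted p = 0.680, edgeR). All SDHBKOSDHAlow samples lay below both parental samples, but the difference did not pass the test (-0.42 ± 0.22, adjusted p = 0.453, edgeR).

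UBA7 had 23.1 and 43.8 CPM in parental, 19.2, 14.5 and 16.2 CPM in SDHBKO and 10.9, 28.4 and 15.6 CPM in SDHBKOSDHAlow samples. The parental and SDHBKO samples did not overlap, with a log2 fold change of -1.0 ± 0.45 and an unadjusted p of 0.0380 that did not hold after adjustment (0.249, edgeR). Its log2 fold change between SDHBKOSDHAlow and SDHBKO cells changed from 0.20 to -0.33 without SDHBKOSDHAlow replicate 2, and was not called in either fit. HERC5 had 6 and 11 counts in parental, 2, 5 and 3 in SDHBKO and 5, 8 and 5 in SDHBKOSDHAlow samples, or 6.94 and 14.6, then 2.74, 5.56 and 3.24, then 6.03, 5.97 and 5.57 CPM. The parental samples lay above all others, by a log2 fold change of -1.42 ± 0.68 for SDHBKO cells (adjusted p = 0.279, edgeR) from counts this low.

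UBE2L6 had 38.2 and 46.5 CPM in parental, 45.2, 41.1 and 50.7 CPM in SDHBKO and 50.7, 63.4 and 64.6 CPM in SDHBKOSDHAlow samples. The SDHBKOSDHAlow samples lay above the parental ones, with a log2 fold change of 0.50 ± 0.30 (adjusted p = 0.515, edgeR). TRIM25, a ligase that also acts on the RNA sensor RIG-I, had 120 and 147 CPM in parental, 145, 139 and 128 CPM in SDHBKO and 171, 91.0 and 196 CPM in SDHBKOSDHAlow samples, where replicate 2 was the lowest of all 8 samples. Its log2 fold change between SDHBKOSDHAlow and SDHBKO cells was 0.14 ± 0.25 with that library and 0.40 without it (adjusted p = 0.862 and 0.354, edgeR). None of the 5 genes of this system was called in any comparison by edgeR, and 2, UBA7 and HERC5, had an unadjusted p below 0.05, both lower in SDHBKO against parental cells, beside 8.34% of all genes lower at that p.

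**Figure D3:**
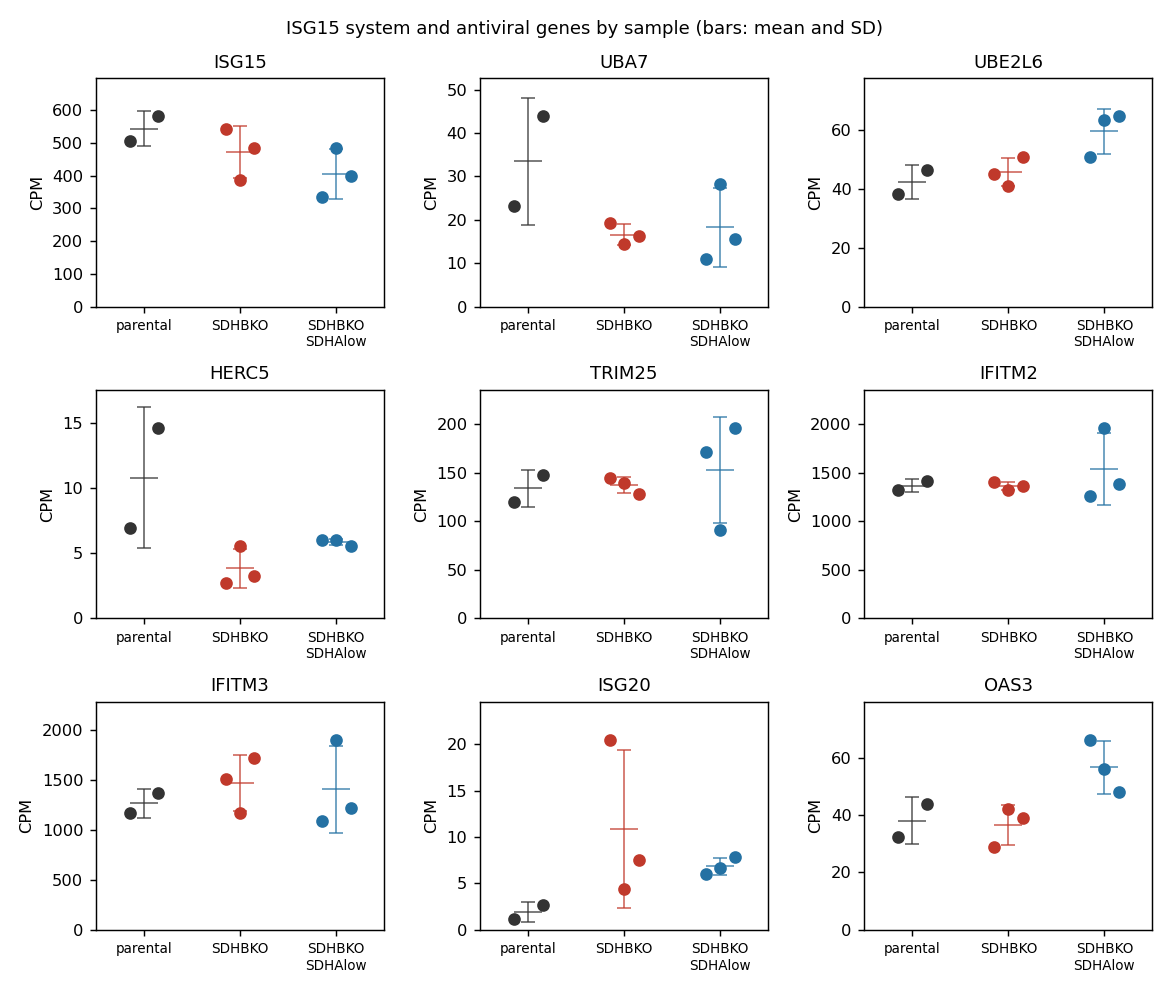
CPM of 9 genes of the ISG15 system and antiviral effectors, 1 point per sample, with the mean and SD of 2 parental, 3 SDHBKO and 3 SDHBKOSDHAlow samples. None was called; the 3 SDHBKOSDHAlow points of OAS3 lie above all SDHBKO and parental points, and both parental points of ISG20 lie below all others.

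The antiviral effectors included the most abundant listed genes. IFITM2 and IFITM3 encode membrane proteins that hinder the entry of viruses into cells, and they ranked 91 and 96 by mean CPM among the 7550 genes tested. IFITM2 had 1320.0 and 1412 CPM in parental, 1402, 1318 and 1359.7 CPM in SDHBKO and 1264, 1962 and 1384 CPM in SDHBKOSDHAlow samples. IFITM3 had 1167 and 1371 CPM in parental, 1515, 1170.0 and 1721 CPM in SDHBKO and 1091, 1906 and 1225 CPM in SDHBKOSDHAlow samples. For both genes the groups overlapped, and SDHBKOSDHAlow replicate 2 held the highest value. Between SDHBKO and parental cells the log2 fold changes were -0.01 ± 0.21 and 0.21 ± 0.24 (adjusted p = 0.994 and 0.696, edgeR). Between SDHBKOSDHAlow and SDHBKO cells they were 0.18 ± 0.19 and -0.06 ± 0.21, and without SDHBKOSDHAlow replicate 2 they were -0.06 and -0.36 (adjusted p = 0.913 and 0.332, edgeR). Against parental cells those of SDHBKOSDHAlow cells were 0.17 ± 0.21 and 0.15 ± 0.24, and without that library -0.05 and -0.14, with no call in either fit. IFITM2 and IFITM3 are near-identical neighbours on chromosome 11, and a read that fits both could be split or lost, which makes the level of each uncertain. IFITM1, another gene of the same cluster, had no read.

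OAS3 (chr12:112938051-112976460, plus strand) makes the oligoadenylates that activate RNase L. It had 32.4 and 43.8 CPM in parental, 28.7, 42.2 and 38.8 CPM in SDHBKO and 66.4, 56.0 and 47.9 CPM in SDHBKOSDHAlow samples. All SDHBKOSDHAlow samples lay above the samples of both other groups, which overlapped each other. The log2 fold change of SDHBKOSDHAlow from SDHBKO cells was 0.62 ± 0.28 with an unadjusted p of 0.0378, and it did not hold after adjustment (0.384, edgeR). Against parental cells it was 0.58 ± 0.32 (adjusted p = 0.478, edgeR). OAS1 and OAS2, which lie beside OAS3 on chromosome 12 and belong to the same enzyme family, had 14 and 2 counts in all 8 samples together.

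ISG20 (chr15:88635670-88656483, plus strand) encodes a 3′ to 5′ exonuclease of single-stranded RNA. It had 1 and 2 counts in parental, 15, 4 and 7 in SDHBKO and 5, 9 and 7 in SDHBKOSDHAlow samples. Both parental samples lay below all 6 knockout samples. The counts per read were 5.33 times those of parental cells in SDHBKO (95% exact conditional interval 1.63 to 27.5) and 3.62 times in SDHBKOSDHAlow samples (1.08 to 19.0), intervals that cover counting error only. The fitted log2 fold change in SDHBKO against parental cells was 2.41 ± 0.89 and was not called (adjusted p = 0.145, edgeR). It passed the threshold without SDHBKO replicate 2 (2.79, adjusted p = 0.0948) or without SDHBKOSDHAlow replicate 2 (2.42, adjusted p = 0.0977), and was 1.92 without parental replicate 1 (adjusted p = 0.650).

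The remaining effectors tested were BST2, a tether that holds budding viruses at the cell surface, and IFIT3, which belongs to a family that binds foreign RNA. BST2 ranged from 2.65 to 24.5 CPM and IFIT3 from 1.08 to 10.01 CPM over the 8 samples. Their log2 fold changes in SDHBKO against parental cells were 1.16 ± 0.63 and -1.10 ± 0.79 (adjusted p = 0.352 and 0.503, edgeR), and the samples of these groups overlapped. The median over the 6 effectors tested was 0.10 in SDHBKO against parental, 0.06 in SDHBKOSDHAlow against SDHBKO and 0.37 in SDHBKOSDHAlow against parental cells, with 3, 3 and 5 genes above 0.

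Among the transcription factors, STAT2, IRF1, IRF7 and SP110 were tested and none was called. STAT2, which carries the interferon signal to the nucleus, averaged 16.1 ± 11.5 (SD, n = 2), 25 ± 0.787 (n = 3) and 18.1 ± 3.58 CPM (n = 3) in parental, SDHBKO and SDHBKOSDHAlow cells. IRF7, an amplifier of interferon production, averaged 27.2 ± 0.897, 28.6 ± 6.28 and 28.7 ± 3.57 CPM in the same order, with log2 fold changes between 0.02 and 0.09 in the 3 comparisons. IRF1, an activator of class I and other interferon targets, averaged 22.2 ± 11.8, 34.3 ± 6.4 and 30.5 ± 1.64 CPM. It overlaps the antisense gene IRF1-AS1, and without the strand setting reads of the shared stretch may be lost or miscounted. SP110, a nuclear body protein, averaged 9.27 ± 0.0262, 3.47 ± 0.879 and 5.95 ± 1.61 CPM. Its 3 groups did not overlap, but with 2 to 8 counts a sample it was not called (-1.37 ± 0.68 in SDHBKO against parental cells, adjusted p = 0.303, edgeR). IRF9, the partner of STAT2, had 0 to 2 counts in every sample.

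IFI6 and IFI35 were the tested genes of the remaining interferon-induced group. IFI6, a mitochondrial and endoplasmic reticulum protein, averaged 29.6 ± 0.619 (SD, n = 2), 24.3 ± 8.0 (n = 3) and 19.5 ± 7.79 CPM (n = 3) in parental, SDHBKO and SDHBKOSDHAlow cells. IFI35 averaged 6.79 ± 0.215, 15.6 ± 4.72 and 14.5 ± 7.33 CPM, and both parental samples lay below all others, with a log2 fold change of 1.17 ± 0.60 in SDHBKO cells that did not pass the test (adjusted p = 0.319, edgeR).

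Over the 25 genes tested, 10 log2 fold changes were above 0 and 15 below in SDHBKO against parental cells, with a median of -0.09. In SDHBKOSDHAlow against SDHBKO cells 15 were above 0 and 10 below, with a median of 0.14 that was -0.06 without SDHBKOSDHAlow replicate 2. In SDHBKOSDHAlow against parental cells 12 were above and 13 below, with a median of 0.00, or -0.07 without that library. The medians over all genes tested were 0.00, 0.01 and 0.02. The groups did not overlap for 10 of the 25 genes in SDHBKO against parental cells, with 4 higher and 6 lower, beside 37.9% of all genes tested (19.3% higher and 18.6% lower). This held for 6 genes in SDHBKOSDHAlow against SDHBKO cells, with 4 higher and 2 lower, beside 17.4% (8.7% and 8.69%), and for 12 genes in SDHBKOSDHAlow against parental cells, with 4 higher and 8 lower, beside 30.7% (15.2% and 15.5%). At an unadjusted p below 0.05, 1 listed gene was higher and 4 were lower in SDHBKO against parental cells, beside 9.11% and 8.34% of all genes, and 0 were higher and 2 lower in SDHBKOSDHAlow against parental cells, beside 5.83% and 6.46%.

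**Figure D4:**
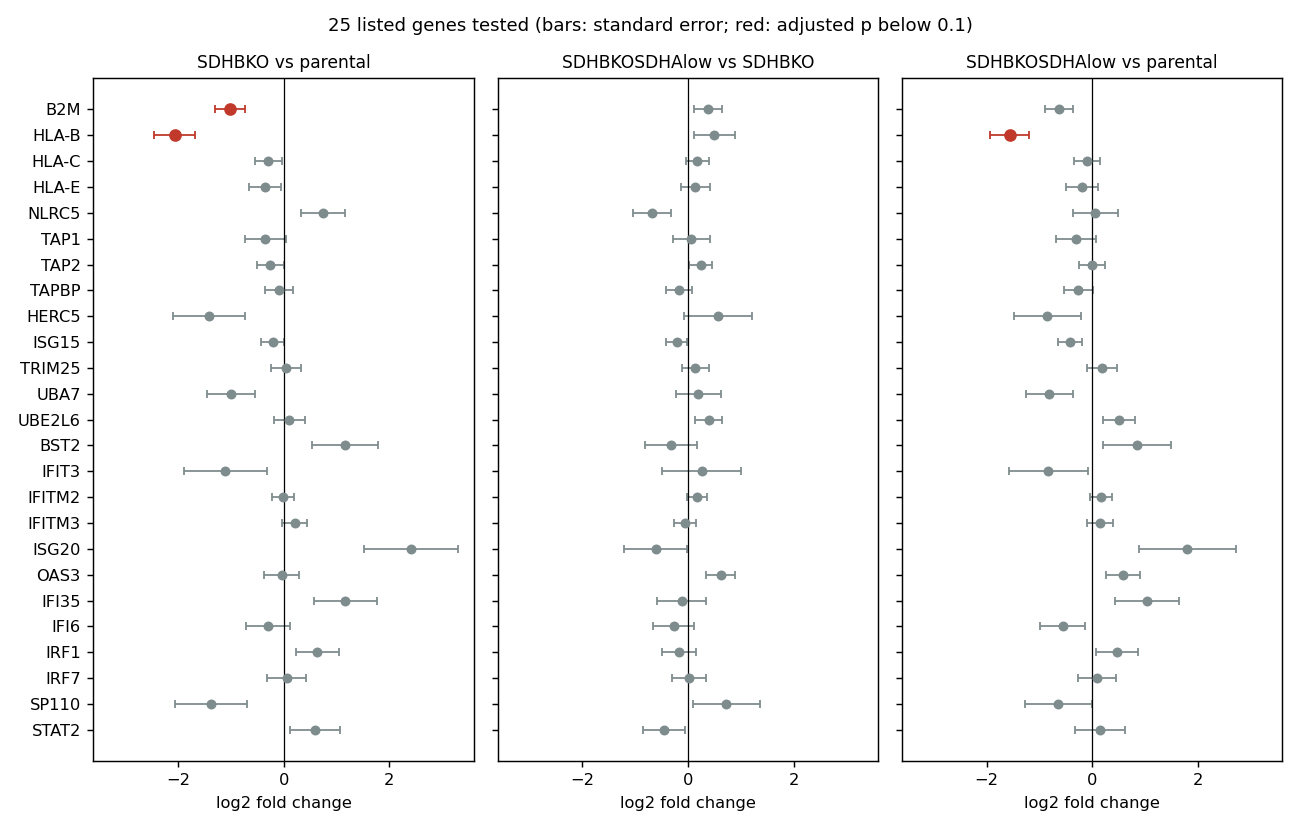
Log2 fold changes with standard errors of the 25 listed genes tested, in 3 comparisons from the same edgeR fit, in order of role. Red points have an adjusted p below 0.1; these are HLA-B and B2M in SDHBKO against parental and HLA-B in SDHBKOSDHAlow against parental cells, all below 0.

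The genes upstream and beside the listed ones were described with 5 further lists, of which 110 genes were matched and 49 tested. Of the 15 interferon and receptor genes 8 were at 0 in all samples, all of them interferons and IFNB1 and IFNG among them, and IFNL1 had 1 count. The receptor chains IFNAR1, IFNAR2, IFNGR2, IFNLR1 and IL10RB were tested and not called. None of the 9 tested genes of signal transduction, which include the kinases JAK1 and TYK2, was called. Among 10 tested genes of nucleic acid sensing 1 was called higher in SDHBKO against parental cells and 1 lower in SDHBKOSDHAlow against SDHBKO cells, beside 3.14% and 1.19% of all genes tested. The first was TICAM1, the adaptor of Toll-like receptor 3, at 12.7 and 14.6 CPM in parental and 58.8, 30.0 and 25.9 CPM in SDHBKO samples (log2 fold change 1.46 ± 0.45, adjusted p = 0.0899, edgeR). In SDHBKOSDHAlow samples TICAM1 had 37.4, 41.8 and 24.5 CPM, also above both parental samples. These cells were not called against parental (1.35 ± 0.45, adjusted p = 0.201) or SDHBKO cells (-0.11 ± 0.35, adjusted p = 0.925, both edgeR). The second was MAVS, the mitochondrial adaptor of RNA sensors, at 239, 227 and 312 CPM in SDHBKO and 128, 119 and 128 CPM in SDHBKOSDHAlow samples (-1.05 ± 0.21, adjusted p = 0.0142, edgeR). This call was lost without SDHBKO replicate 3 (-0.91, adjusted p = 0.128). MAVS had 133 and 187 CPM in parental samples, and SDHBKO cells were not called against them (0.70 ± 0.24, adjusted p = 0.114, edgeR). That comparison passed the threshold without SDHBKOSDHAlow replicate 2 (adjusted p = 0.0354), in a fit of the 2 groups alone (0.0586) and with DESeq2 (0.0696).

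Of 15 tested genes in the list of other interferon-stimulated genes 2 were called, both lower in SDHBKO against parental cells, beside 2.4% of all genes tested. CD274, the immune checkpoint ligand PD-L1, had 14 and 10 counts in parental, 1, 2 and 2 in SDHBKO and 4, 12 and 6 in SDHBKOSDHAlow samples. The counts per read of parental samples were 7.81 times those of SDHBKO samples (95% exact conditional interval 2.92 to 26.2, which covers counting error only). The fitted log2 fold change in SDHBKO against parental cells was -2.84 ± 0.70 (adjusted p = 0.0336, edgeR). SDHBKOSDHAlow samples lay between the parental and SDHBKO samples without overlap (1.77 ± 0.69 against SDHBKO cells, adjusted p = 0.287, edgeR). The secreted glycoprotein LGALS3BP had 238 and 196 CPM in parental, 107, 120 and 132 CPM in SDHBKO and 194, 130 and 248 CPM in SDHBKOSDHAlow samples (-0.86 ± 0.26 in SDHBKO against parental cells, adjusted p = 0.0757, edgeR). In SDHBKOSDHAlow against SDHBKO cells LGALS3BP was not called (0.67 ± 0.23, adjusted p = 0.236), but it was without SDHBKOSDHAlow replicate 2 (0.87, adjusted p = 0.0149, both edgeR). Against parental cells SDHBKOSDHAlow cells were not called with that library (-0.20) or without it (0.02). Another 12 genes of this list, among them CXCL10, CXCL11 and RSAD2, were at 0 in all samples.

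Of 10 tested genes in the list of other antigen processing and presentation genes 1 was called, in SDHBKO against parental cells, beside 3.14% of all genes tested called higher and 2.4% lower. CALR, a chaperone of the peptide-loading complex, was higher in SDHBKO cells, at 764, 800 and 762 CPM against 441 and 393 CPM in parental samples (0.89 ± 0.22, adjusted p = 0.0355, edgeR), and had 869, 557 and 601 CPM in SDHBKOSDHAlow samples. SDHBKOSDHAlow cells were not called against parental cells (0.69 ± 0.22, adjusted p = 0.175, edgeR), but passed the threshold without SDHBKOSDHAlow replicate 2 (0.81, adjusted p = 0.0422) and with DESeq2 (0.70, adjusted p = 0.0905). The immunoproteasome subunits PSMB8 and PSMB9 were not called. The class II genes HLA-DRA, HLA-DRB1, HLA-DPA1 and CD74 and their transactivator CIITA were at 0 in all samples. The calls of TICAM1, LGALS3BP and CALR in SDHBKO against parental cells were lost without parental replicate 1 (adjusted p = 0.535, 0.558 and 0.394) and without parental replicate 2 (0.311, 0.206 and 0.307), and that of CD274 was lost without parental replicate 2 (0.141), while without parental replicate 1 the gene no longer passed the count threshold. Leaving out SDHBKO replicate 1 also ended the calls of TICAM1, LGALS3BP, CALR and CD274 (adjusted p = 0.296, 0.233, 0.114 and 0.134). Leaving out SDHBKO replicate 3 ended those of LGALS3BP and CD274 (0.148 and 0.112), and leaving out SDHBKO replicate 2 ended that of LGALS3BP (0.119).

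HLA-B, HLA-C, HLA-E, TAP1, TAP2 and TAPBP lie in the MHC region of chromosome 6, which also holds genes that do not serve antigen presentation. Between the start of HLA-F and the end of TAPBP (chr6:29722775-33314284) 70 genes were tested, the 6 listed genes included. In SDHBKO against parental cells 6 of the 70 were called higher and 3 lower (12.9%), beside 5.54% of all genes tested (3.14% higher and 2.4% lower), with HLA-B among the lower ones, and their median log2 fold change was 0.07. In SDHBKOSDHAlow against parental cells HLA-B was the only gene of the region to be called (1.43%, beside 0.914% of all genes tested). In SDHBKOSDHAlow against SDHBKO cells 0 of the 70 were called by edgeR.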

How the data were processed

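RNA of 8 samples was sequenced from the 3′ end (QuantSeq 3′ mRNA-Seq, single-end reads). The authors trimmed reads with Trimmomatic, used Sortmerna to take out those from ribosomal and mitochondrial RNA, and used STAR 2.5.2b to align the others to GRCh38 and count them per gene. The raw counts deposited by the authors were used for all results. The deposited normalized signal, counts divided by 1 factor per sample, served only to check the files: the normalized values of SDHBKO replicates 1 and 3 match raw replicates 3 and 1 (100.0% of genes in 1 ratio, relative tolerance 0.001). Replicate numbers are those of the raw files.

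Groups came from the sample labels. Symbols and positions came from GENCODE release 44 (56948 of 58051 genes named). In edgeR 4.0.16 (R 4.3.3), a quasi-likelihood model with TMM scaling was fitted to all 8 samples in 3 groups over the 7550 genes with a DESeq2 BaseMean above 5. Genes were called at a Benjamini-Hochberg adjusted p below 0.1, with the adjustment made over all genes tested of a comparison. The standard error is the log2 fold change divided by the square root of F. The biological coefficient of variation was 21.5%, and depth was 773042 to 1427141 reads on genes. The scripts were tested on simulated data.

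The genes and lists were chosen with earlier results of these data known. All 45 genes are accounted for; single values are given for genes called in any comparison, for those whose groups did not overlap at an unadjusted p below 0.05, and for the 10 of highest mean CPM, and the others by means, ranges or counts. No set test was run. Of the tested genes 14 overlap another annotated gene, 2 of them a tested one. Alternatives were DESeq2 1.42.0, its size factors in edgeR, 2 other count filters, a threshold of 0.05, separate fits for each pair of groups, a block for the replicate number, and each sample left out in turn.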

Additional observations from a re-analysis of the deposited data

How the results depend on the processing

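In the comparison in which a named gene was called, its log2 fold change kept its direction under every alternative that gave a value. The median of the listed genes moved in each alternative by less than the median standard error of their log2 fold changes. That error describes single genes and is a loose bound for a median, whose sign was not the same in all. Of the listed genes called in SDHBKO against parental cells (2 in the main fit), there was 1 at an adjusted p below 0.05, 1 with DESeq2 and 0 to 3 when each sample was left out. DESeq2 gave no adjusted p for HLA-B in that comparison (unadjusted p = 3.39e-05) and 0.0493 for B2M. For TICAM1 and CD274 of the further lists DESeq2 likewise gave no adjusted p there, so that it did not call them. In SDHBKOSDHAlow against parental cells (1 in the main fit) the count was 0 at 0.05, 0 in a fit of the 2 groups alone, and 0 to 1 over the left-out samples. Over all genes, calls in SDHBKO against parental cells (418) were 171 at 0.05, 773 with 2 groups alone and 0 to 846 over left-out samples, the lowest without parental replicate 1 and the highest without SDHBKOSDHAlow replicate 2. In SDHBKOSDHAlow against SDHBKO cells (114) they were 64 at 0.05, 64 with 2 groups alone and 39 to 375 over left-out samples, and in SDHBKOSDHAlow against parental cells (69) they were 13 at 0.05, 152 without a count filter, 7 with 2 groups alone and 4 to 173 over left-out samples. The causes were not tested. With 1 parental sample left, the fit assumes that it varies like the other groups.

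With the replicate number as a block, calls over all genes were 199, 59 and 12 in the same order of comparisons, and listed genes called were 1 in SDHBKO against parental cells, where B2M was lost (-1.02, adjusted p = 0.125), and 0 in SDHBKOSDHAlow against parental cells, where HLA-B was lost (-1.40, adjusted p = 0.212). Samples with the same raw number did not deviate together (correlations from -0.27 to 0.0931 over 7 pairs), so the raw numbers gave no sign of pairing. The normalized values number SDHBKO replicates 1 and 3 the other way round, and pairing by those numbers was not tested. Depth limits the 20 untested genes, and counts under 20 per sample limit ISG20, HERC5, SP110 and CD274.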
